A study of Mus musculus with 5 samples.

Results

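The genes described here encode the nuclear subunits of oxidative phosphorylation, the 5 protein complexes of the inner mitochondrial membrane and the soluble carrier cytochrome c. They were chosen by symbol alone, as the rows named Nduf (subunit letters a, b, c, s and v), Sdha to Sdhd, Uqcr, Cyc1, Cycs, Cox4 to Cox8 and Atp5, leaving out the Ndufaf assembly factors. This gave 87 of the 17739 genes in the table, of which 38 carry complex I symbols, 4 complex II, 9 complex III, 18 complex IV and 17 complex V, with Cycs as the remaining 1. Symbols and complexes differ for a few members. Ndufa4 and its paralog Ndufa4l2 keep complex I names although NDUFA4 is a subunit of complex IV by structure, Cox7a2l is a factor that joins complexes III and IV into supercomplexes, and Ndufb4c, Ndufs5-ps and Cox7c-ps1 are pseudogenes. Ndufs5, Cox8c and the mitochondrially encoded subunits were not analysed here.

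The samples were 5 cerebellar tumours, labelled medulloblastoma, from Math1-Cre;Gli2A mice, bred by crossing Math1-Cre with R26;Gli2A animals and kept on doxycycline (DOX) diet from conception, with GLI2 labelled as active in all of them. Math1-Cre acts in granule neuron progenitors, the cells from which Sonic hedgehog (SHH) medulloblastoma arises, and GLI2 is the transcriptional activator at the end of that pathway. The tumours, called 1, 5, 8, 14 and 15 after their library numbers, form a single group with no untreated or tumour-free samples, so no comparison between conditions was possible. The labels give no ages and do not say whether the numbers are different animals, so the spread between samples may be partly technical.

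Oxidative phosphorylation passes electrons from NADH through complex I, or from succinate through complex II, to ubiquinone, then through complex III and cytochrome c to complex IV, which reduces oxygen. Complexes I, III and IV pump protons across the inner membrane, and complex V, the ATP synthase, makes ATP as the protons return. Most subunits are nuclear-encoded and imported, a few of complexes I, III, IV and V are encoded in mitochondrial DNA, and complex II, also an enzyme of the citric acid cycle, is wholly nuclear-encoded. Neurons and their progenitors depend on both this pathway and glycolysis, and cerebellar granule neuron progenitors driven by SHH are known for high aerobic glycolysis.

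The promoters of these genes are known for sites of NRF1, of the ETS factor GABP (NRF-2) and of YY1. RefSeq promoter sequences on GRCm38.p6, 250 bases before to 50 bases after each start, were available for 68 of the 87 members and for 13736 genes of the table. Each was searched on both strands for GCGCA, any 1 base, then GCGC (NRF1), for CCGGAAG (ETS) and for AAGATGGC (YY1). A gene with several starts counted once. Stretches of 230 bases, 200 before and 30 after the start, are shown for 1 gene of each complex that held a match and for the pair Cox8a and Cox8b, whose levels were far apart. They are written 5′ to 3′ on the strand of the gene, with the motif matches in capitals. The stretches lie at chr13:73328453-73328682 on the minus strand for Ndufs6 (complex I), chr9:50603820-50604049 on the minus strand for Sdhd (complex II), chr9:108936448-108936677 on the plus strand for Uqcrc1 (complex III), chr5:115348929-115349158 on the minus strand for Cox6a1 (complex IV) and chr11:115419890-115420119 on the minus strand for Atp5h (complex V). Those of the pair lie at chr19:7217587-7217816 for Cox8a and chr7:140900417-140900646 for Cox8b, both on the minus strand.
Ndufs6: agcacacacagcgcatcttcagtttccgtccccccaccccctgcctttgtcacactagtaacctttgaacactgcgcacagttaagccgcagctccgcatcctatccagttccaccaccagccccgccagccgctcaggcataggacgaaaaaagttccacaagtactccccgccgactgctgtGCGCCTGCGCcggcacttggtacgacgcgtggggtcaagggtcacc
Sdhd: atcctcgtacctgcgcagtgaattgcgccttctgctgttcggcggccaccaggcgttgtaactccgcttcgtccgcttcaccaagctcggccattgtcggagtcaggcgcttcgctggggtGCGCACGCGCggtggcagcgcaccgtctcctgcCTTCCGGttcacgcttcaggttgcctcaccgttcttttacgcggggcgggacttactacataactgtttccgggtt
Uqcrc1: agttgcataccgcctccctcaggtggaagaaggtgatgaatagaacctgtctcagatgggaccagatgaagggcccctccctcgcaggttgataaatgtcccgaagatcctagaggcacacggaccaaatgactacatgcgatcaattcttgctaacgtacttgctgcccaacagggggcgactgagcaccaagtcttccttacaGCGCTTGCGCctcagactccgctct
Cox6a1: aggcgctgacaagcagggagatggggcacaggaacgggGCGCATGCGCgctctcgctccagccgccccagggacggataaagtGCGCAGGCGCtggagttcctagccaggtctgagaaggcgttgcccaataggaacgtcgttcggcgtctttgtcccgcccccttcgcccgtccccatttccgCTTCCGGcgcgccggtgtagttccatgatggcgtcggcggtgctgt
Atp5h: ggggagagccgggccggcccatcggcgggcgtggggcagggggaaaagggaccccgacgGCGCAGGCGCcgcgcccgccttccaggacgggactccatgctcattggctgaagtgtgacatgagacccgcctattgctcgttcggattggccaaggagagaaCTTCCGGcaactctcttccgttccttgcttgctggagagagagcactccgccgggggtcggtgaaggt
Cox8a: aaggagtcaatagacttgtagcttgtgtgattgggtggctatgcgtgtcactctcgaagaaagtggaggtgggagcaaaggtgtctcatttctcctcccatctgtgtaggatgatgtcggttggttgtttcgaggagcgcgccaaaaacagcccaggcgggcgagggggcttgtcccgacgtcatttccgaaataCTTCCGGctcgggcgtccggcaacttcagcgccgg
Cox8b: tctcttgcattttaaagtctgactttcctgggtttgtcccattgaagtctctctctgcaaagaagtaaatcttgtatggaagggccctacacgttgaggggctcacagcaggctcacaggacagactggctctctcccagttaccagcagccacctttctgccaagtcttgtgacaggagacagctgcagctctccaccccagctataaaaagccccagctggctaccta

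The NRF1 spelling was found in 16 of the 68 member promoters (23.5%), against 9.31% of all gene promoters. The YY1 spelling was found in 10 (14.7%), against 4.28%, and the ETS spelling in 17 (25%), against 16.3%. At least 1 of these spellings was held by 37 members (54.4%), against 26.4% of all genes. The share with any of them was 30.8% when genes with a mean log2 value under 5 were left out. Complexes differed in their share, with 12 of 15 complex V promoters holding any spelling, all 3 of complex II, 3 of 5 of complex III, 16 of 31 of complex I and 3 of 13 of complex IV. Complexes II and III rest on few promoters. The complex IV share, 23.1%, was near that of all genes. Its promoters include those of the tissue-restricted forms Cox6b2, Cox7a1, Cox7b2 and Cox8b, none with a match.

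Other spellings gave contrasts in both directions or none. The NRF1 spelling with T as its free base was held by 7.35% of the members, against 1.90% of all genes. With any free base, a T before and an A after, it was held by 5.88% of the members, against 2.05% of all genes, and the YY1 spelling followed by GGC by 5.88%, against 1.37%. The longer ETS spelling CCGGAAGT was held by 7.35% of the members, against 7.27% of all genes, and the NF-Y spelling CCAATC by 22.1%, against 22.3%. The SP1 spelling GGGCGG was held by 42.7% of the members, against 62.4%. The CREB spelling TGACGTCA was held by 7.35%, against 3.18%. The 3 spellings shown in capitals were picked after the shares of all spellings tried had been seen, so the shares describe these promoters and no test was made. In the sequences above, Cox6a1 holds a pair of NRF1 matches and an ETS match just before the start, and Sdhd and Atp5h hold an NRF1 and an ETS match each. Cox8a has an ETS match 5 bases before its start and 19 CpG dinucleotides in its promoter, whereas Cox8b has no match and 2 CpG dinucleotides. Other pairs that were far apart in level were split. Cox6b1 held an ETS match and Cox6b2 no match, but neither Cox7a2 and Cox7a1 nor Cox7b and Cox7b2 held any of the 3 spellings. A match is a run of letters and not a shown binding site.

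**Figure D1:**
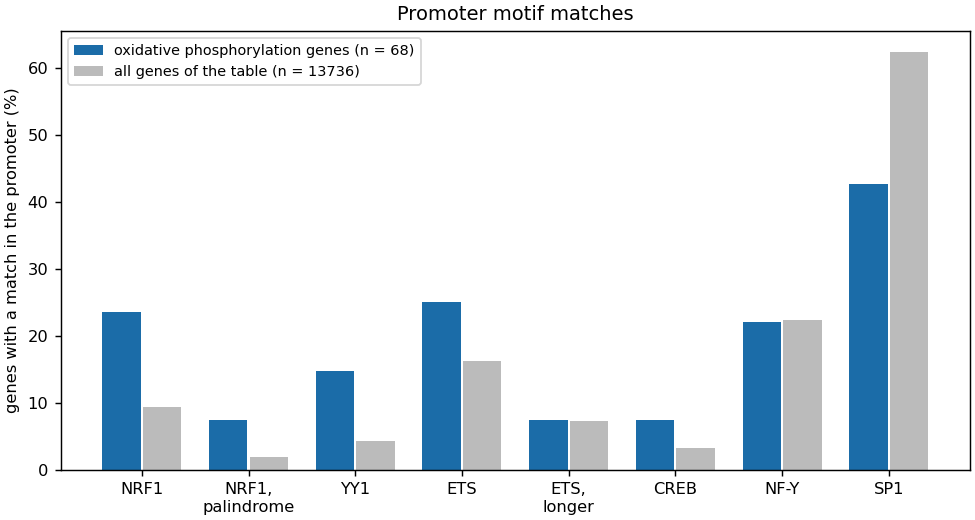
Share of genes (percent, y axis) whose promoter holds each motif spelling (x axis, where the NRF1 palindrome has T as its free base) on either strand within 250 bases before to 50 after the start, for the 68 members with a promoter entry and for the 13736 genes of the table with one. The NRF1 and YY1 bars of the members, at 23.5% and 14.7%, stand above those of all genes, at 9.31% and 4.28%, and the SP1 bar stands below, at 42.7% against 62.4%.

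The table holds 1 value per gene and tumour on a log2 scale after normalization, from 0.33 to 16.91, and gives no read totals, so the depth behind a value is unknown. The medians over genes with a mean of at least 5 lay within 0.02 of each other in the 5 tumours. Markers set out for the tumour's own lineage were high by their median, which was 13.17 ± 0.24 over 9 progenitor and SHH genes (SD, n = 5). The lowest of the 9, Atoh1, averaged only 8.62, from 8.00 to 9.49. The medians of all genes in the tumours were 8.51 to 8.58. The median of the 9 markers was 12.75 in tumour 5, against 13.20 to 13.37 in the others. The single markers were split, with 3 of 9 lowest in tumour 5, 4 in tumour 15 and 2 in tumour 1. Tumour 5 was the highest for all 7 oligodendrocyte, all 7 microglial and all 6 choroid plexus markers. Bulk values cannot tell fewer cells of a type from less RNA per cell, and the part of cell mixture in the results below was not tested.

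Oxidative phosphorylation genes were expressed at high levels in all 5 tumours. The mean log2 value was at least 10 for 48 of the 87 members, against 29.4% of all genes, and at least 5 for 79 members, against 77.2% of all genes. The 8 members under 5 were 5 tissue-restricted complex IV forms and the 3 pseudogenes. Members are short, with a median exon length of 0.977 kb against 3.198 kb for all genes, and a longer transcript yields more fragments. For comparisons between genes the log2 exon length in kb was therefore subtracted from each log2 value, called the per-length level from here on. The median per-length level was 9.95 over the 86 members with a length, against 6.85 over all genes. With genes under a mean of 5 left out it was 10.12 against 7.60.

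The complexes did not sit at equal levels. The median per-length level of complex V was 10.76 ± 0.06, of complex III 10.49 ± 0.08, of complex IV 10.19 ± 0.08, of complex II 9.93 ± 0.03 and of complex I 9.63 ± 0.05 (SD, n = 5 tumours each). Complex I minus complex V was -1.15, -1.12, -1.13, -1.13 and -1.13 in tumours 1, 5, 8, 14 and 15. That difference averaged -1.13 ± 0.01 on the per-length log2 scale, where the same lengths enter in every tumour, so that the SD does not cover the error of the lengths. Without length the difference was -0.75, and with all annotated exons merged complex I was at 9.19 and complex V at 9.51. Complex I was also below complexes II, III and IV in 5 of 5 tumours, both with and without the length correction. Neighbours in the order from complex V down to complex I lay 0.27, 0.30, 0.26 and 0.30 apart, each with the same sign in 5 of 5 tumours. The place of complex II depends on length, with a median exon length of 2.07 kb against 0.971 kb in complex I. Without the correction complex II was above complexes III, IV and V by 0.30, 0.38 and 0.09 in 5 of 5 tumours, whereas with it complex II was below all 3. With all annotated exons merged complex III was the highest at 9.99, and by the mean over members complex IV was the lowest at 8.39. With members under a mean of 5 left out complex IV was instead the highest at 11.15. Complexes hold unequal numbers of members that were not sampled from a population, so no p-value was computed between them.

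**Figure D2:**
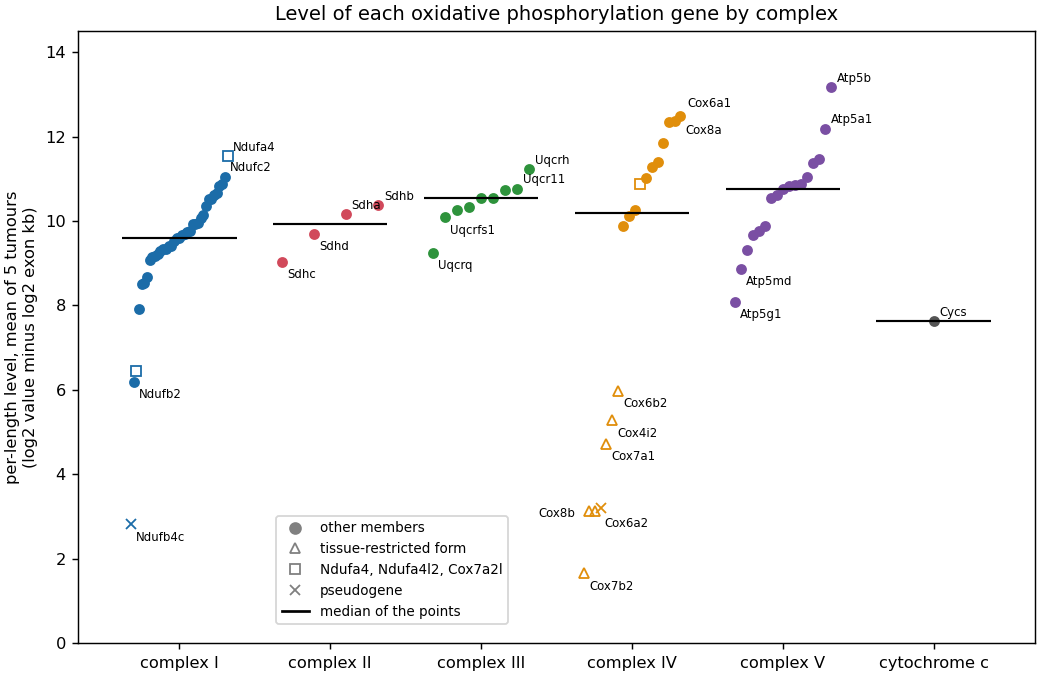
Per-length level of each member (y axis, log2 value minus log2 exon length in kb, mean of 5 tumours) by complex (x axis), with the complex median as a line. Complex V has the highest median at 10.76 and complex I the lowest of the 5 complexes at 9.63. Complex IV falls into an upper cluster and a lower one of tissue-restricted forms. With members under a mean of 5 left out its median was 11.15, above that of complex V.

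Complex I, the NADH dehydrogenase, is built from a catalytic core and a shell of accessory subunits. Its 7 nuclear-encoded core subunits had a median per-length level of 9.93 ± 0.06 and its 27 accessory subunits 9.63 ± 0.05 (SD, n = 5). Of these, Ndufs3 was at 10.15 per length, Ndufs7, which lies at the ubiquinone site, at 9.96 and Ndufv1, the subunit that binds NADH and FMN, at 9.94. The iron-sulfur subunits Ndufv2, Ndufs8 and Ndufs1 were at 9.42, 9.34 and 9.08. Among accessory subunits Ndufc2 was the highest at 11.05 and Ndufb9 followed at 10.89. Ndufa4, counted here by its symbol, stood above both at 11.53. Ndufb2, a membrane-arm subunit, was the lowest of complex I other than the pseudogene at 6.19, where its merged exons add up to 4.375 kb. With the median length of its transcripts it was at 7.05. The pseudogene Ndufb4c was at 2.81.

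Complex II, succinate dehydrogenase, had its catalytic subunits above its membrane anchors when merged exons gave the length. The iron-sulfur subunit Sdhb was at 10.38 per length and the flavoprotein Sdha at 10.16, against 9.69 for the anchor Sdhd and 9.04 for the anchor Sdhc. Sdha had log2 values of 11.76, 11.68, 11.62, 11.71 and 11.72 in tumours 1, 5, 8, 14 and 15, a range of 0.14. The low place of Sdhc rests on merged exons of 3.25 kb, and with the median transcript length it was at 11.03. With that length Sdhc was above Sdha at 10.84 and Sdhb at 10.38.

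Complex III, the cytochrome bc1 complex, had the narrowest interquartile range of per-length levels. Its 9 members spanned 9.25 for Uqcrq to 11.23 for Uqcrh, the hinge subunit. The interquartile range was 0.48, against 0.69 in complex II, 0.98 in complex I, 1.26 in complex V and 6.51 in complex IV. That of complex IV was 1.76 with members under a mean of 5 left out. This order depends on the length used. Without length, or with the median transcript length, the interquartile range was wider in complex III than in complex II. The core proteins Uqcrc1 and Uqcrc2 were at 10.73 and 10.32 per length. The redox subunits, cytochrome c1 (Cyc1) and the Rieske iron-sulfur protein (Uqcrfs1), were at 10.25 and 10.09. Uqcr11, a small subunit, was at 10.77. Uqcrc2 varied least of all members with a mean of at least 5, with log2 values of 11.25, 11.25, 11.22, 11.25 and 11.26 in tumours 1, 5, 8, 14 and 15, a range of 1.03-fold. It lies at chr7:120635176-120659524 on the plus strand. Cytochrome c itself (Cycs), which carries electrons to complex IV and also triggers apoptosis when released, was at 7.63 per length with 3.123 kb of exons. Its log2 value averaged 9.27 ± 0.08 (SD, n = 5).

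Complex V, the ATP synthase, had the highest single member. Atp5b, the catalytic beta subunit at chr10:128083273-128090391 on the plus strand, was at 13.18 per length and had log2 values of 14.20, 14.05, 14.12, 14.09 and 14.11 in tumours 1, 5, 8, 14 and 15. Tumour 1 was the highest and tumour 5 the lowest, within 1.11-fold. Atp5a1, the alpha subunit, was at 12.19. The 5 subunits of the F1 head and stalk had a median of 11.04 ± 0.06, the 4 of the peripheral stalk 10.87 ± 0.06, the 5 small membrane subunits 9.77 ± 0.09 and the 3 c-ring genes 9.66 ± 0.05 (SD, n = 5). The order of the last 2 groups depends on length. Without length the c-ring genes had a median of 10.40, above the small membrane subunits at 9.67. Atp5md, a small subunit linked to dimers of the enzyme, was at 8.87, and at 11.80 with the median transcript length.

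Complex IV, cytochrome c oxidase, divided by isoform. Its 10 widely expressed nuclear subunits had a median per-length level of 11.34 ± 0.02, from Cox7c at 9.89 to Cox6a1 at 12.48, with Cox8a at 12.36 and Cox4i1 at 12.34. The 6 tissue-restricted forms had a median of 3.94 ± 0.07, from Cox7b2 at 1.65 to Cox6b2 at 5.98 (SD, n = 5). The lower forms include the heart and skeletal muscle isoforms Cox6a2, Cox7a1 and Cox8b, the testis forms Cox6b2 and Cox7b2, and Cox4i2, a lung isoform induced by low oxygen. The 2 groups did not overlap in any tumour, and the median of 10.19 given above for complex IV falls at the low end of the upper group. With members under a mean of 5 left out it was 11.15, the highest of the 5 complexes. The 8 striated muscle markers had a median log2 value of 4.13, and 2 of them, Actc1 at 7.12 and Acta1 at 6.10, had means of at least 5.

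Paralogs that fill the same place in a complex were compared within each tumour, 10 pairs in all. The gene named first was the higher by the per-length level in 5 of 5 tumours for each pair. Cox8a had log2 values of 11.53, 11.58, 11.44, 11.47 and 11.50 in tumours 1, 5, 8, 14 and 15, against 1.65, 1.74, 1.67, 1.65 and 1.55 for Cox8b. The values of Cox8b, of Cox6a2 at 2.48 to 2.71 and of Cox7b2 at 0.71 to 0.83 are near the low end of the table, so the differences of these 3 pairs say little beyond their order. Cox7a1, at 3.72 to 3.93, and Cox4i2, averaging 4.93, were also under a mean of 5. The sizes of their differences are uncertain too. Cox8a minus Cox8b was 9.24 ± 0.07. Cox6a1 minus Cox6a2 was 9.35 ± 0.13 and Cox7b minus Cox7b2 was 8.48 ± 0.04. Cox4i1 minus Cox4i2 was 7.07 ± 0.11, Cox7a2 minus Cox7a1 was 6.56 ± 0.07 and Cox6b1 minus Cox6b2 was 5.88 ± 0.16. Ndufa4 minus Ndufa4l2, its paralog induced by low oxygen, was 5.10 ± 0.14 (per-length log2 differences, SD, n = 5). With 5 tumours the smallest p-value that a two-sided exact sign-flip permutation test can give is 0.063, and each of the 10 pairs gave 0.063, also after Benjamini-Hochberg adjustment over the 10 pairs, so none could pass 0.05.

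The c subunit of the ATP synthase ring is encoded by Atp5g1, Atp5g2 and Atp5g3, which differ in their import peptides and give the same mature protein. Atp5g3 had log2 values of 10.97, 11.09, 10.99, 11.03 and 10.97 in tumours 1, 5, 8, 14 and 15, against 10.41, 10.33, 10.45, 10.40 and 10.43 for Atp5g2 and 10.47, 10.30, 10.43, 10.37 and 10.30 for Atp5g1. Atp5g3 was above both in every tumour, while Atp5g2 and Atp5g1 overlap on this scale. Per length, Atp5g3 exceeded Atp5g1 by 3.39 ± 0.11 and Atp5g2 by 1.81 ± 0.09, and Atp5g2 exceeded Atp5g1 by 1.58 ± 0.07 (SD, n = 5). These sizes rest on the lengths, since Atp5g1 has merged exons of 4.912 kb. Without the length correction the differences were 0.63, 0.60 and 0.03, and Atp5g2 was above Atp5g1 in 4 of 5 tumours (two-sided exact sign-flip permutation p = 0.4375).

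**Figure D3:**
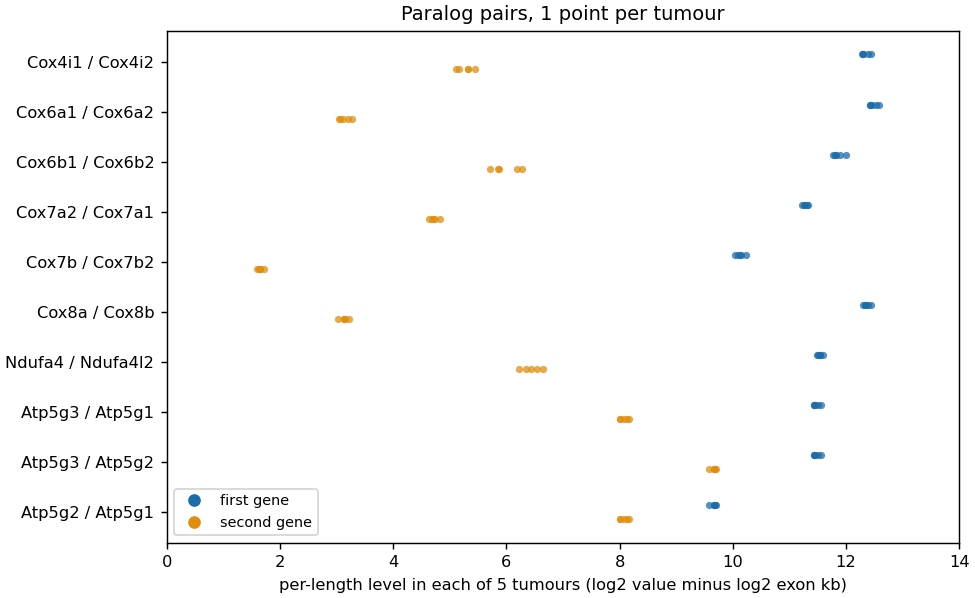
Per-length level (x axis, log2 value minus log2 exon length in kb) of the first gene (blue) and the second gene (orange) of each of the 10 paralog pairs (y axis), with a point for each of the 5 tumours. In every pair the blue and orange points are apart, from differences of 1.49 to 1.68 for Atp5g2 and Atp5g1 up to 9.15 to 9.52 for Cox6a1 and Cox6a2, where the second gene is near the low end of the table.

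Oxidative phosphorylation genes varied little between tumours. None of the 79 members with a mean of at least 5 had a range over 1.5-fold, against 14.7% of all such genes, none had one over 2-fold, against 3.79%, and 8 had one over 1.2-fold, against 51.6%. The median fold range was 1.11 for members and 1.21 for all genes. The median SD was 0.062 against 0.109, and 72 of 79 members had an SD below the median of all genes, which 50.0% of genes have by construction. Among genes with a mean of 8 to 12, the median SD was 0.062 for the 74 members and 0.095 for all 8892 genes. The median SD was 0.042 in complex III, 0.057 in complex V, 0.058 in complex II, 0.066 in complex I and 0.068 in complex IV. Low spread was not particular to the subunits. The median SD was 0.046 for citric acid cycle enzymes and 0.043 for mitochondrial carrier and outer membrane genes. It was 0.058 to 0.080 in the lists of assembly factors and 0.092 for regulators of mitochondrial transcription and biogenesis. Differences between tumours may be shrunk by the authors' transformation, more so for genes with few reads.

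The most variable members were Cox6b2 and Ndufa4l2, both paralogs of a widely expressed form. Of the members with a mean of at least 5 they also had the lowest means, at 5.55 and 6.34. The part of their low level in this spread was not tested. Cox6b2, the testis form of a complex IV subunit at chr7:4751792-4753094 on the minus strand, had the widest range at 1.48-fold. Its log2 values were 5.85, 5.42, 5.28, 5.43 and 5.75 in tumours 1, 5, 8, 14 and 15, with tumours 1 and 15 above the rest. Ndufa4l2 had 6.54, 6.43, 6.25, 6.12 and 6.34, a range of 1.34-fold, with tumour 1 highest and tumour 14 lowest. Its widely expressed counterpart Ndufa4 had a range of 1.08-fold, at a higher mean of 10.85. Ndufb4, an accessory subunit of complex I, had 8.66, 8.28, 8.51, 8.46 and 8.54, a range of 1.30-fold, with tumour 5 alone at the low end. Uqcrb, a small subunit of complex III, had 9.78, 9.64, 9.46, 9.59 and 9.79, a range of 1.26-fold. The next most variable were Ndufa11, Ndufc1, Ndufs8 and Ndufa3 of complex I, Cox6c of complex IV and Atp5md of complex V, with SDs of 0.10 to 0.13. Among the steadiest were Uqcrc2, Ndufb5, Ndufb10 and Uqcrc1, with ranges of 1.03-fold to 1.05-fold. In 3 of the 87 members, Ndufc2, Sdhb and Uqcrc2, a single tumour stood apart by a gap of over 0.71 of the range, against 6.29% of all genes.

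**Figure D4:**
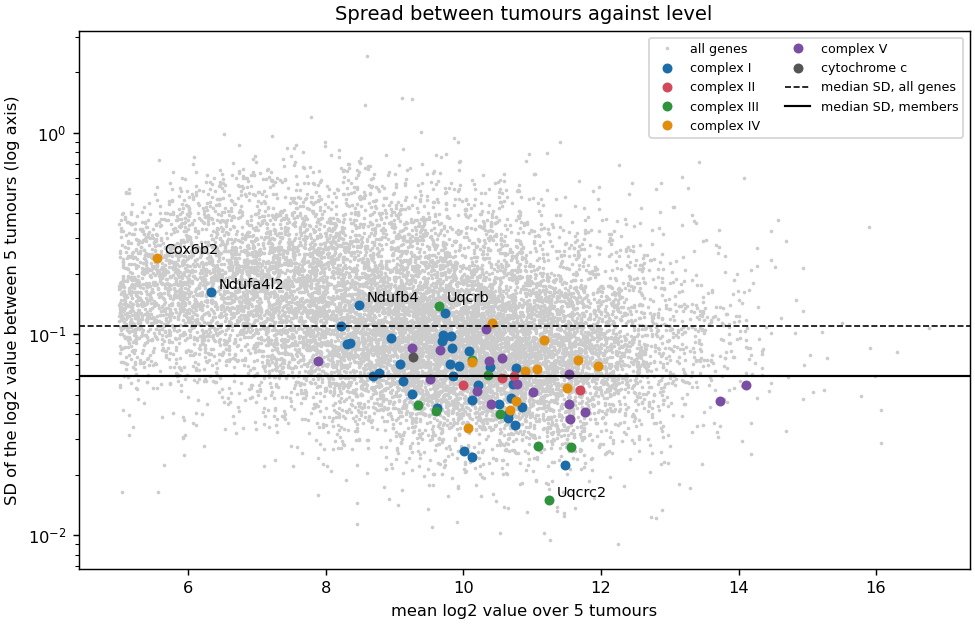
SD of the log2 value over the 5 tumours (y axis, itself on a log scale) against the mean log2 value (x axis) for the members, coloured by complex, and for all genes with a mean of at least 5 in grey. The solid line marks the members' median SD of 0.062 and the dashed line the median of 0.109 for all genes, and 72 of 79 members lie below the dashed line. Cox6b2 is the most variable at 0.24.

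Small shifts between tumours ran through many members. Tumour 1 held the highest value of 37 of the 79 members (46.8%), against 20.2% of all genes with a mean of at least 5. The same share was 22.6% among genes with under 1.5 kb of exons and 21.1% among genes with a mean of 8 to 12, both backgrounds chosen after the pattern had been seen. Tumours 5, 8, 14 and 15 held the highest value of 11, 13, 5 and 13 members, against 24.1%, 18.5%, 15.8% and 21.4% of all genes. Tumour 1 held the lowest value of 3 members, against 16.9% of all genes, and tumour 14 of 19, against 13.0%. After centring on tumour medians tumour 14 held the lowest value of 12 members. Tumours 5, 8 and 15 held the lowest of 23, 16 and 18, against 24.6%, 22.6% and 22.9%.

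The size of these shifts was small. In tumour 1, 67 of 79 members lay above the median of the other 4 tumours, against 52.0% of all genes. The median deviation of the members there was 0.07 on the log2 scale, or 1.05-fold, against 0.0059 for all genes. It was 0.0228 among genes with under 1.5 kb of exons and 0.0051 among genes with a mean of 8 to 12. All 12 complex IV members with a mean of at least 5 lay above the median of the others in tumour 1, with a median deviation of 0.08. So did 13 of 17 members of complex V, 31 of 36 of complex I, 7 of 9 of complex III and 3 of 4 of complex II, with median deviations of 0.09, 0.07, 0.03 and 0.09. In tumour 5 the median deviation was -0.07 in complex V, -0.06 in complex I and -0.03 in complex IV, and 0.0023 in complex II and 0.02 in complex III. Oligodendrocyte markers also differed between tumours, with all 7 lowest in tumour 1 at a median deviation of -0.84 and all 7 highest in tumour 5 at 0.84. Their deviations were 0.49, -0.05 and -0.59 in tumours 8, 14 and 15, where the members' were 0.0047, -0.04 and 0.0015. The 6 mature granule neuron markers had median deviations of -0.54, 1.36, 0.06, 0.22 and -0.62 in tumours 1, 5, 8, 14 and 15. They were split, with 4 highest in tumour 5 and 2, Rbfox3 and Cbln1, highest in tumour 15. In tumour 15, 3 of the others were lowest. The part of either cell type in these shifts was not tested.

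**Figure D5:**
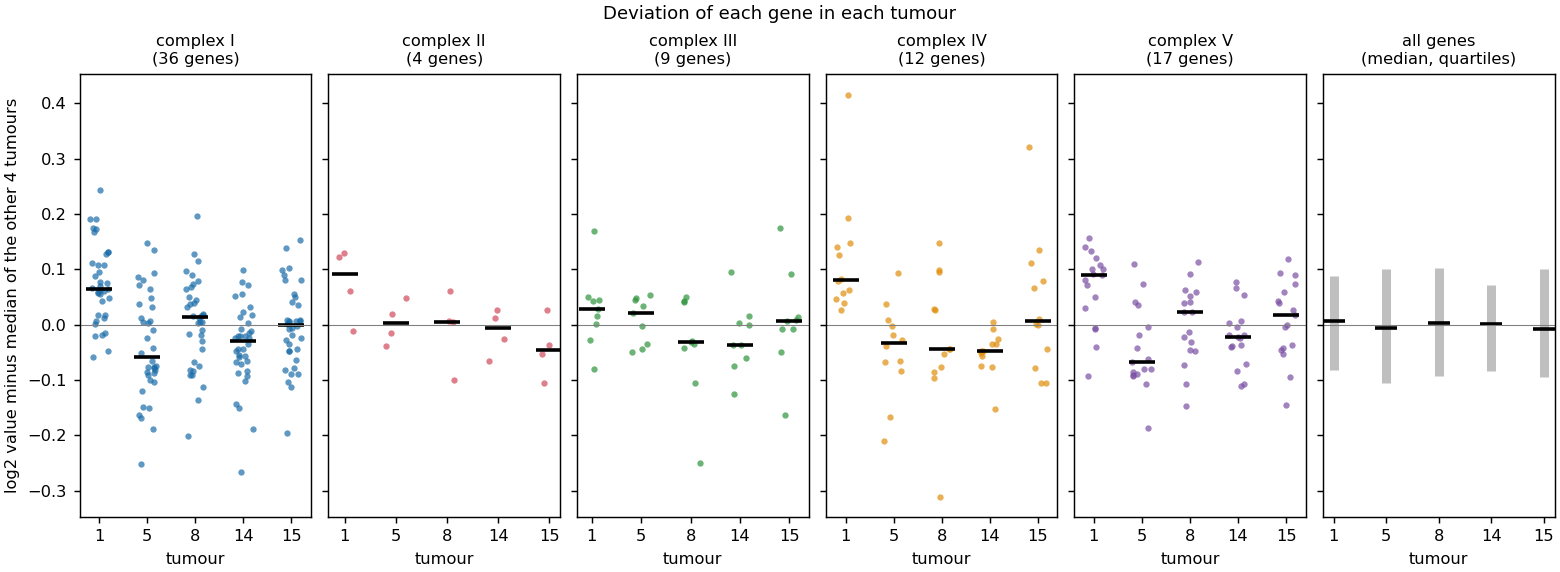
Deviation of each member with a mean of at least 5 from the median of the other 4 tumours (y axis, log2) in each tumour (x axis), with a panel for each complex, a point for each gene and a line at the median. The last panel gives the median and quartiles of all genes. Tumour 1 is shifted upward in every complex, by a median of 0.03 in complex III to 0.09 in complexes II and V, and the members' medians over all complexes are -0.04 in tumours 5 and 14.

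By their medians, assembly factors were at lower per-length levels than the subunits, and carriers at higher ones. The assembly factors had median per-length levels of 7.32 for complex I (15 genes), 6.72 for complex II (4), 7.91 for complex III (6) and 7.42 for complex IV (19), each below the median of the complex they help build. Of the complex I factors, Ecsit and Tmem70 were the highest at 8.62 and 8.46 and Nubpl, which inserts iron-sulfur clusters, the lowest at 4.04. Tmem70 is also counted among the 5 ATP synthase factors. Of those of complex II, Sdhaf1 and Sdhaf4 were the highest at 7.25 and 7.15 and Sdhaf3 the lowest at 3.54. Uqcc2 and Uqcc1 led those of complex III at 9.84 and 7.99, with Lyrm7, a chaperone of the Rieske protein, at 4.52. Coa3 and Surf1 led those of complex IV at 9.16 and 8.71, with Coa4 at 4.48. Among the 5 ATP synthase factors, Atpif1, the inhibitor of ATP hydrolysis by the enzyme, reached 12.21, Fmc1 8.90 and Atpaf1 6.08.

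Citric acid cycle enzymes (13 genes) had a median per-length level of 9.89, led by malate dehydrogenase Mdh2 at 11.80 and citrate synthase Cs at 11.01, with Suclg2, a succinyl-CoA ligase subunit, the lowest at 6.42. The 7 carrier and outer membrane genes had a median of 11.22, led by the ADP/ATP carriers Slc25a5 at 12.09 and Slc25a4 at 11.50, with the import receptor Tomm20 the lowest at 9.44. Tumour 1 held the highest value for 7 of the 13 citric acid cycle enzymes, 5 of the 7 carrier and outer membrane genes, 6 of the 15 complex I assembly factors and 5 of the 6 complex III assembly factors, beside 20.2% of all genes. It did so for 5 of the 19 complex IV assembly factors, 1 of the 4 complex II assembly factors, 1 of the 5 ATP synthase factors and 1 of the 15 regulators of mitochondrial transcription and biogenesis.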

How the data were processed

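RNA was sequenced from papain-dissociated cells of 5 tumours, with strand-specific mRNA libraries per the labels' protocols. STAR 2.4.1, featureCounts of Subread 1.4.6 and DESeq2 are named in the submitters' processing notes, with the builds mm10 and GRCm38. The annotation and the settings for multi-mapping reads are not stated by those notes. The authors deposited 1 table of normalized log2 values per gene, whose name points to DESeq2's regularised logarithm, a transform that shrinks differences at low counts. Reads shared between near-identical copies, such as pseudogenes, make those members' values uncertain. Sampling depth cannot be recovered from these values, so no counting interval is given. Another 2 value columns of the table were not used.

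Values were taken as deposited. Genes with a mean of at least 5 entered the comparisons of spread. Exon lengths are the merged exons of protein-coding transcripts in GENCODE M21 (GRCm38), found for 98.9% of genes, 3 members through RefSeq synonyms. Within-tumour paralog differences were tested with a two-sided exact sign-flip permutation test with Benjamini-Hochberg adjustment over 10 pairs. Alternatives were other lengths, a mean over members, no filter, centring on tumour medians and leaving out each tumour. Named genes are the 3 highest and 2 lowest of each complex, paralog pairs, core catalytic subunits, the 10 most and 5 least variable members, members with 1 tumour apart, and the 2 highest and 1 lowest of each companion list. The values of 1 member that this rule names are not reported here. Promoter spellings and some genes named for length were chosen after their values had been seen. Members and lists were chosen with earlier results of these data known. The scripts were tested on simulated data. Python 3.11.15, numpy 2.4.6, pandas 2.3.3, scipy 1.17.1 and matplotlib 3.10.9 were used.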

Additional observations from a re-analysis of the deposited data

Results flagged for a closer look

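In 3 members, 1 of the 5 tumours stood apart from the rest, by a gap to its nearest neighbour of over 0.71 of the whole range. Chance flags about 1 in 20 such sets, and 6.29% of all genes in the table met the same rule. Ndufc2, an accessory subunit of complex I, was at 10.72 in tumour 5, against 10.62 to 10.64 in the others (log2 values). Sdhb, the iron-sulfur subunit of complex II, was at 10.67 in tumour 1, against 10.52 to 10.56. Uqcrc2, a core protein of complex III, was at 11.22 in tumour 8, against 11.25 to 11.26, a difference that is small even beside the spread of other members. With the 87 members included, 145 such sets were examined and 5 were flagged. Outside the members, Cs, citrate synthase, was at 12.61 in tumour 1, against 12.54 to 12.56. The median of the 9 granule neuron progenitor and SHH tumour markers was 12.75 in tumour 5, against 13.20 to 13.37, although 3 of the 9 single markers were lowest there.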

How the results depend on the processing

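The count of members with a range over 1.5-fold was 0 under every alternative run. The median deviations of the complexes moved by less than the spread between tumours, and some near 0 took either sign when a tumour was left out, such as complex I in tumour 15 at -0.026 to 0.018. Those in tumour 1 stayed above 0 in every alternative run, from 0.01 to 0.118. The 10 paralog differences kept their sign, although their sizes in the c-ring genes depend on length. The per-length levels of complexes I, II, III, IV and V depend on the length used. They were 9.19, 9.52, 9.99, 9.76 and 9.51 with all annotated exons merged, 9.82, 10.65, 10.35, 10.27 and 10.57 with no length subtracted, and 10.17, 10.61, 11.00, 10.94 and 11.28 with the median protein-coding transcript length, an alternative chosen after seeing the data. By the mean over members complexes I, II, IV and V were at 9.38, 9.82, 8.39 and 10.55, and complex IV was at 11.15 with members under a mean of 5 left out. Tumour 14 held the highest value of 9 members with no filter, against 5 with it, and the lowest of 12 after centring on tumour medians, against 19 before. The count highest in tumour 1, 37 with all tumours, was 38 to 47 with 1 other tumour left out. Leaving out tumours in turn gave 12 to 18 members highest in tumour 5, 13 to 27 in tumour 8 and 13 to 27 in tumour 15, the upper values without tumour 1. It gave 4 to 5 lowest in tumour 1, the upper value without tumour 15, and 20 to 29 lowest in tumour 14, the upper value without tumour 5. Fewer tumours leave more members to each by construction. No paired analysis was possible because all samples belong to 1 group, so no groups share replicate numbers. Unknown depth and 5 samples limit what can be said of small shifts.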

Other observations

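Regulators of mitochondrial transcription and biogenesis were set beside the subunits in each tumour, with no test of a difference between the lists. Of the 15 regulators, 7 had their highest value in tumour 14, where 5 of the 79 members did, and 1 had its highest in tumour 1, where 37 of the 79 members did. Tumour 5 held the lowest value of 7 of the 15 regulators and of 23 of the 79 members, against 24.6% of all genes. The background shares of all genes were 15.8% in tumour 14 and 20.2% in tumour 1. The 1 in tumour 1 was Ppargc1a, the coactivator that drives mitochondrial biogenesis, with log2 values of 8.30, 7.96, 7.87, 7.64 and 7.90 in tumours 1, 5, 8, 14 and 15. Nrf1, the factor whose spelling was searched for in the promoters, had 10.27, 10.22, 10.32, 10.36 and 10.23, and Tfam, which packages mitochondrial DNA, had 9.61, 9.53, 9.68, 9.69 and 9.56. Both were highest in tumour 14 and lowest in tumour 5. Per length, Yy1 and Gabpa were the highest regulators at 8.96 and 8.64, and Ppargc1b, a second coactivator of this family, was the lowest at 3.86. The median per-length level of the list was 7.58. Ppargc1a, Nrf1 and Tfam were named here after their values had been seen.

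The members are spread over 19 chromosomes, with no more than 8 on any of them, on chromosome 7, and 3 are on the X chromosome.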
